A study of Rattus norvegicus with 5 samples.

Results

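The glycolytic enzymes examined here were 10 genes of the pathway from glucose to lactate: Hk1, Pfkp, Aldoa, Gapdh, Pgk1, Eno1, Eno2, Pkm, Ldha and Tpi1. A gene was read where a probe set of the rat Affymetrix array, controls excluded, was annotated to that gene alone, under its current symbol or an older alias. This gave 11 of the 8740 probe sets and 6 of the 10 genes: Hk1 with 2 probe sets, Pfkp with 2, Aldoa with 1, Pgk1 with 3, Eno1 with 2 and Pkm with 1. Of these 11, 9 were among the 3586 probe sets with the highest mean signals, called bright here, all but Aldoa and 1 of Pgk1. Outside the controls, the only probe sets found for Gapdh, Ldha and Tpi1 were annotated to several genes, in each case the enzyme and 1 or 2 related copies, and were not read. Gapdh and Hk1 also had 3 control probe sets each. Those of Gapdh are used below as a check of the RNA, and those of Hk1 were not read. Eno2, the neuronal enolase, had no annotated probe set. CDK1 is an older alias of Ldha, but the probe set under that name carried the gene identifier of the cell cycle kinase Cdk1 and was not a member.

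The arrays measured RNA of primary hypothalamic cultures from Wistar rat embryos at embryonic day 17. GFP+ cells came from cultures carrying a plasmid in which the promoter of Trh, the gene of thyrotropin-releasing hormone, drives green fluorescent protein (GFP), and were collected by fluorescence-activated cell sorting 48 h after transfection (2 arrays, RNA pooled from 6 experiments). GFP+/- cells came from cultures transfected in the same way and went through the sorter without selection, so that fluorescent and dark cells were mixed (2 arrays, 3 experiments pooled). NT cells were from cultures that received no plasmid (1 array, 3 experiments pooled). The comparisons ask how TRH-promoter-active cells differ from the mixed culture (GFP+ against GFP+/-) and from cells never transfected (both against NT). Transfected cultures were also held in a serum-free transfection mix, and the methods do not state that NT cells passed through the sorter. Transfection and passage through the sorter therefore cannot be told apart in the comparisons with NT. The labels call the arrays of a population biological replicates, whereas the methods describe aliquots of a single RNA pool, so that every p-value below measures only the spread between arrays.

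Glycolysis splits glucose into pyruvate in the cytosol and yields ATP without oxygen. Its early kinases, hexokinase and phosphofructokinase, spend ATP and are the main points of control, while the later steps, from glyceraldehyde-3-phosphate to pyruvate, return it. In brain the pathway is shared unevenly: astrocytes are known for strong glycolysis and lactate export and neurons for the oxidation of pyruvate, and several steps have brain or neuronal isozymes. Many of these genes are known targets of hypoxia-inducible factor (HIF).

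The Gapdh control probe sets of the array set the NT array apart. They read the 5' end, the middle and the 3' end of the transcript, and a higher 3' to 5' ratio goes with shorter labelled RNA. Gapdh 3' signals were alike on all arrays, at 11353 and 9337 in GFP+, at 11070 and 8336 in GFP+/- and at 11163 in NT. At the 5' end the GFP+ arrays read 780 and 532, the GFP+/- arrays 871 and 588 and the NT array 2049. The 3' to 5' ratios were thus 14.6 and 17.6 for GFP+, 12.7 and 14.2 for GFP+/- and 5.45 for NT. The NT array had the lowest ratio, for beta-actin as well (10.9, against 14.4 to 31.4 on the other arrays). The part of this RNA difference in the comparisons with NT was not tested. Between GFP+ and GFP+/- the beta-actin ratios overlapped, while both Gapdh ratios of GFP+ lay above both of GFP+/-.

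**Figure D1:**
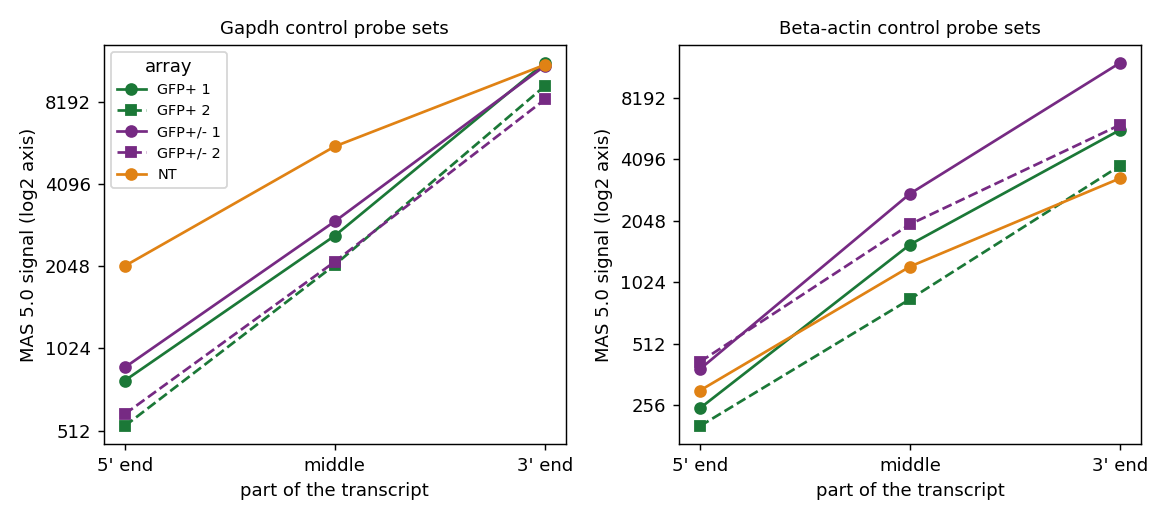
Signal (log2 axis) of the Gapdh and beta-actin control probe sets at the 5' end, middle and 3' end of the transcript, one line per array. For Gapdh the NT array lies above the other 4 at the 5' end (2049 against 532 to 871) and in the middle, and within them at the 3' end.

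Cell type markers moved with the populations too. The summed signal of 9 measured neuronal markers was 28820 and 23990 in GFP+ and 18895 and 20669 in GFP+/-, with 38730 in NT. By the test used below, 5 of the 9 fell in GFP+/- against NT (9.23% of all probe sets were called either way) and 2 in GFP+ against NT (8.44%). In GFP+ against GFP+/- 0 were called, as of all probe sets. There 3 of the 9 had an unadjusted p under 0.05 (13.9% of all), with a median log2 difference of 0.51. Mapt was higher in GFP+ (12752 and 10426) than in NT (10041). Fibroblast and matrix markers (9 measured) summed to 13963 and 20146 in GFP+ and 42523 and 41874 in GFP+/-, with 18458 in NT. Col1a1, Col1a2 and Sparc made up most of these sums. In GFP+ against GFP+/- 8 of the 9 had an unadjusted p under 0.05 (13.9% of all), with a median log2 difference of -1.53. Col3a1 (means of 273 in GFP+ and 991 in GFP+/-, with 1318 in NT), Dcn (9.29, 58.7 and 124) and Lum (50.4, 95.8 and 265) were highest in NT. Smooth muscle markers (6 measured) summed to 2202 and 3966, 11289 and 13026, and 1692. Between GFP+ and GFP+/- 5 of the 6 had an unadjusted p under 0.05, and the median log2 difference was -1.88. Of the 6, Myh11 was higher in GFP+ (107 and 93.2) than in GFP+/- (71.3 and 70.5). Astrocyte markers (7 measured) summed to 25841 and 28240, 29165 and 25473, and 19115, mostly from Vim and Glul, whereas S100b and Slc1a2 were highest in NT. Skeletal muscle markers (5 measured) summed to 2519 and 2678, 8042 and 12750, and 2984, mostly from Myh1 (1939 and 2113, 7665 and 12438, and 2534), whereas Acta1 was higher in GFP+ (473 and 351) than in GFP+/- (213 and 178). The list's median log2 difference of GFP+ from GFP+/- was 0.16. The 2 erythroid markers summed to 3502 and 3711, 8668 and 5991, and 380, mostly from Hbb. The other, Alas2, read 430 and 325 in GFP+ and 308 and 231 in GFP+/-, with 127 in NT. Microglial markers (4 measured, all dim) summed to 339 to 510 and oligodendrocyte markers (4 measured) to 671 to 1221 over all arrays. The microglial C1qb read 90.9 and 10.2 in GFP+ and 10.2 and 16.6 in GFP+/-, with 262 in NT. Aif1, Ptprc and Cd14 were not highest in NT. Trh itself was dim, at 115 and 141 in GFP+ and 109 and 106 in GFP+/-, with 96.6 in NT, with the GFP+ arrays above the other 3 but no call. With the arrays set to equal medians, GFP+ and GFP+/- overlapped for Trh. No probe set of Gfap was read. The part of these cell types in the values below was not tested, and in such bulk RNA fewer cells of a type and less RNA per cell cannot be told apart.

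The first comparison asked whether TRH-promoter-active cells differed in glycolytic enzyme transcripts from the mixed culture. No member passed the threshold. Both Pfkp probe sets gave higher signals on the GFP+ arrays than on the GFP+/- arrays, the brightest probe sets of Pgk1 and Eno1 gave lower ones, and Hk1, Pkm and Aldoa overlapped. All values are MAS 5.0 signals, linear intensities that the authors scaled to a common mean on each array. A difference is the mean log2 signal of the first population less that of the second, tested with limma over all 8740 probe sets with Benjamini-Hochberg adjustment and a threshold of 0.05. Between the populations with 2 arrays each, 0 of 8740 probe sets were called (0.0%) and 1215 (13.9%) had an unadjusted p under 0.05. Of the 11 member probe sets 0 were called and 0 had an unadjusted p under 0.05. The lowest adjusted p of a member was 0.372. Probe sets whose arrays did not overlap between the populations numbered 4 of 11 for the members, 2 higher and 2 lower in GFP+, against 45.8% of all probe sets (30.4% higher and 15.4% lower). This split depended on the scaling: with the arrays set to equal medians, which moved the median difference of all probe sets from 0.13 to -0.03, 1 member probe set lay higher (Pfkp L25387_at) and 5 lower in GFP+.

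Hk1 encodes the hexokinase typical of brain, which traps glucose in the cell as glucose-6-phosphate. Its brighter probe set, rc_AI012593_at, read 800 and 582 on the GFP+ arrays, 667 and 651 on the GFP+/- arrays and 946 on the NT array. The GFP+ arrays lay on either side of the GFP+/- arrays, and NT was the highest. The log2 difference between GFP+ and GFP+/- was 0.05 ± 0.21 (SE, adjusted p = 0.945), with a 95% interval from -0.47 to 0.57. The other probe set, U27319exon_at, was less bright, at 156 and 214 in GFP+ and 199 and 227 in GFP+/-, with 227 in NT, and its populations overlapped likewise (-0.22 ± 0.26).

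Pfkp encodes the platelet-type subunit of phosphofructokinase, the enzyme of the committed step. Its brighter probe set, L25387_g_at, read 3080 and 2432 in GFP+ and 2301 and 1836 in GFP+/-, with 2109 in NT. Both GFP+ arrays exceeded both GFP+/- arrays and the NT array, but with equal medians the first GFP+/- array (2464) lay between the GFP+ arrays (2969 and 2292). The mean signals were 2756 ± 458 and 2069 ± 329 (SD, n = 2 each), a 1.33-fold ratio, and the log2 difference was 0.41 ± 0.21 (adjusted p = 0.452, 95% interval -0.10 to 0.93). The second probe set, L25387_at, read 267 and 313 in GFP+ and 228 and 146 in GFP+/-, with 528 in NT. Here too GFP+ exceeded GFP+/-, by 0.66 ± 0.28 on the log2 scale (adjusted p = 0.372, interval -0.04 to 1.37), but NT was the highest. This was the only member probe set past 1.5-fold in GFP+ against GFP+/- (1.55-fold, against 29.8% of all probe sets), and no member was past 2-fold (13.1% of all).

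Aldoa encodes aldolase A, which cleaves fructose-1,6-bisphosphate. Its probe set, rc_AA924326_s_at, was dim, at percentile 33.5 of mean signals: 26.1 and 50.4 in GFP+ and 24.6 and 26.5 in GFP+/-, with 125.4 in NT. The first GFP+ array lay between the GFP+/- arrays, and the difference of 0.51 ± 0.50 between those populations (adjusted p = 0.705) came from the second GFP+ array, without which it was 0.03.

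Pgk1 encodes phosphoglycerate kinase, the first ATP-yielding step. Its brightest probe set, rc_AA892797_at, read 10773 and 9571 in GFP+ and 13085 and 13384 in GFP+/-, with 10001 in NT. Both GFP+/- arrays exceeded the other 3, and the 2 GFP+/- arrays differed only 1.02-fold. The log2 difference of GFP+ against GFP+/- was -0.38 ± 0.20 (adjusted p = 0.462, 95% interval -0.87 to 0.10), with averaged signals 1.30-fold higher in GFP+/-. M31788_g_at read 4496 and 5492 in GFP+ and 5411 and 5681 in GFP+/-, with 7580 in NT, with overlap between GFP+ and GFP+/- (-0.16 ± 0.19). The dimmest probe set, M31788_at, lay between 7.06 and 23.0 on all arrays, at percentile 14.2 of mean signals.

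Eno1 encodes the enolase found in most tissues, which forms phosphoenolpyruvate. Its probe set X02610_g_at read 16264 and 15656 in GFP+ and 17639 and 21280 in GFP+/-, with 10651 in NT, and ranked at percentile 99.3 of mean signals. Both GFP+/- arrays exceeded both GFP+ arrays, which in turn exceeded NT. GFP+ and GFP+/- differed by -0.28 ± 0.22 on the log2 scale (adjusted p = 0.625, 95% interval -0.82 to 0.26). The second probe set, X02610_at, read 1867 and 1754 in GFP+ and 3087 and 1751 in GFP+/-, with 2015 in NT. The 1.76-fold gap between its GFP+/- arrays was the widest of any bright member, and its difference of -0.36 ± 0.29 became 0.05 without the first GFP+/- array.

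Pkm encodes the muscle and brain pyruvate kinase, the last ATP-yielding step. Its probe set rc_AA818951_at read 4419 and 4189 in GFP+ and 4320 and 3576 in GFP+/-, with 4647 in NT. The values of GFP+ and GFP+/- overlapped, and the log2 difference was 0.13 ± 0.18 (adjusted p = 0.801, 95% interval -0.32 to 0.58).

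**Figure D2:**
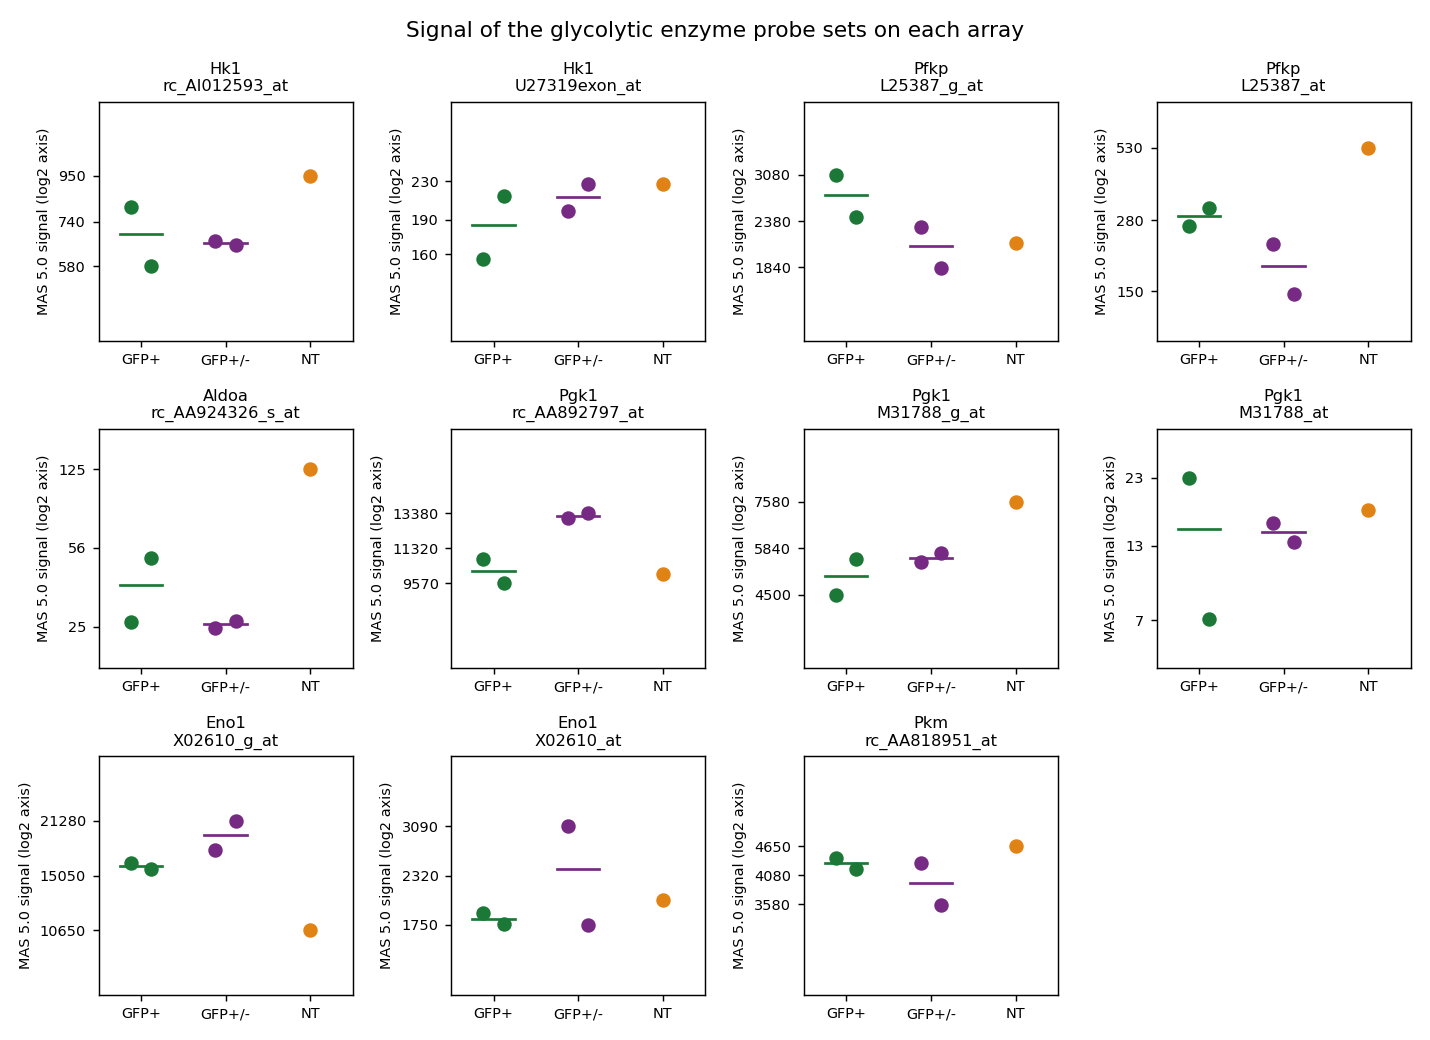
MAS 5.0 signal of the 11 glycolytic enzyme probe sets on each array; points are arrays, bars the mean of 2 arrays, and each panel has its own log2 axis. GFP+ and GFP+/- separate for both Pfkp probe sets (3080 and 2432 against 2301 and 1836 for L25387_g_at), for Pgk1 rc_AA892797_at and for Eno1 X02610_g_at, and overlap in the other 7 panels.

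As a group the 6 genes, each read from its brightest probe set, had a median log2 difference of 0.09 between GFP+ and GFP+/-, beside 0.11 over all 4736 genes. Over the 11 probe sets the median was -0.16 (range -0.38 to 0.66), beside 0.13 over all probe sets. The intervals, like the p-values, hold only the spread between arrays, so they set no limit on a difference between independent cell preparations. On that footing 7 of the 11 had a 95% interval inside 2-fold in either direction, among them the brightest probe sets of Hk1, Pfkp, Pgk1, Eno1 and Pkm. Aldoa, Pgk1 M31788_at, Pfkp L25387_at and Eno1 X02610_at had wider ones. Of the 9 bright ones 0 passed when p-values were adjusted over the bright probe sets alone (4.02% of which passed). In the 9 the median gap between the arrays of a population was 0.23 (GFP+) and 0.27 (GFP+/-) on the log2 scale, near the 0.25 and 0.22 of all bright probe sets.

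The promoters of the measured genes are shown for those whose populations separated in GFP+ against GFP+/- and have an entry (Pfkp and Eno1), and for Hk1 and Aldoa, the measured members with a HIF core. Each is the 250 bases before an annotated transcription start, 5' to 3' on the gene's strand, from RefSeq on the GRCr8 assembly. Capitals mark ACGTG, the core of the HIF recognition element, and GGGCGG, the GC box read by Sp1 and related factors, on either strand (CACGT and CCGCCC on the other). Overlapping GC boxes run together.
Hk1, chr20:30842073-30842322, reverse strand: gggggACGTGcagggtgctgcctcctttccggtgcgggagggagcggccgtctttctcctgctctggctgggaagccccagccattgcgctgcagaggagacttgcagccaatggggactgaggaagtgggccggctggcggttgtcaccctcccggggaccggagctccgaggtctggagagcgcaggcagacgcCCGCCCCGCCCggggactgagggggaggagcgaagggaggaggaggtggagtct
Pfkp, chr17:68639563-68639812, forward strand: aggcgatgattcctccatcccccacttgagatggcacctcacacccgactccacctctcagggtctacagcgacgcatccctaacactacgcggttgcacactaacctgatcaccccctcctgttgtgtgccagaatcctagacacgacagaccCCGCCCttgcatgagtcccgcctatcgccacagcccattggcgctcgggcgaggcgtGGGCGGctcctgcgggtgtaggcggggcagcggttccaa
Aldoa, chr1:190836778-190837027, reverse strand: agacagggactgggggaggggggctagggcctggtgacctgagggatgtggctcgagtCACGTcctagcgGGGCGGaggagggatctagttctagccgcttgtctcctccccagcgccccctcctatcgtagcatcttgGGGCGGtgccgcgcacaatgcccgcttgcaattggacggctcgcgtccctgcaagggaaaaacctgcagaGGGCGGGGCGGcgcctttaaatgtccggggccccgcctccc
Eno1, chr5:166003111-166003360, forward strand: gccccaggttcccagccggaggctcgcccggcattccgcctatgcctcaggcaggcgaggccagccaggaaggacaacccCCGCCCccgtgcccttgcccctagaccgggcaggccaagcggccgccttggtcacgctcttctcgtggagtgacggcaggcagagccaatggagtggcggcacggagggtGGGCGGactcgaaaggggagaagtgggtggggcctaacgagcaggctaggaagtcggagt

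The windows differed in these letters. Hk1, Aldoa and Eno1 have further annotated starts (1, 2 and 1), whose windows held neither motif and are not shown. GC boxes lay in all 4 windows shown, with 4 matches in Aldoa, a pair of them overlapping, and 2 matches in each of the others. A HIF core lay in Hk1 and Aldoa and in neither Pfkp nor Eno1. Of the 9 members with an entry in the promoter table (all but Pgk1), 8 had a GC box in at least 1 window, beside 33.5% of 27457 genes, and 5 had a HIF core (Aldoa, Eno2, Gapdh, Hk1 and Ldha), beside 18.1%. TATAAA was found in Gapdh alone, beside 14.1% of genes. Several members have more than 1 start, and by window the counts were 8 and 5 of 13, beside 30.5% and 16.6% of 33469 windows. These are matches of letters, and no binding was measured.

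The other 2 comparisons set both transfected populations beside NT, a single array, for which the fit assumes the spread of the others. Both share that array, so their values are given side by side and not as separate evidence. In GFP+ against NT 738 of 8740 probe sets were called (8.44%) and in GFP+/- against NT 807 (9.23%). Of the 11 member probe sets 0 were called in either, with 3 at an unadjusted p under 0.05 in each, against 24.3% and 24.9% of all probe sets. Arrays did not overlap for 9 of the 11 in GFP+ against NT, 2 higher and 7 lower (77.4% of all, 41.5% higher and 35.9% lower). In GFP+/- against NT they did not overlap for 8 of the 11, 2 higher and 6 lower (79.2% of all, 35.2% higher and 44.0% lower).

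Hk1 rc_AI012593_at was lower than NT on every transfected array, by -0.47 ± 0.26 in GFP+ (adjusted p = 0.345) and -0.52 ± 0.26 in GFP+/- (adjusted p = 0.288). Eno1 X02610_g_at was higher than NT on every transfected array, by 0.58 ± 0.27 in GFP+ (adjusted p = 0.264) and 0.86 ± 0.27 in GFP+/- (adjusted p = 0.111). Adjusted over the 3586 bright probe sets, the value for GFP+/- passed the threshold (adjusted p = 0.0254, with 32.4% of bright probe sets called), and that for GFP+ did not (adjusted p = 0.110, with 31.5% called). Pkm lay closer to NT, at -0.11 ± 0.22 and -0.24 ± 0.22, and below it on every transfected array.

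Aldoa had the largest difference from NT of any member, 125.4 against 26.1 and 50.4 in GFP+ and 24.6 and 26.5 in GFP+/-. On the log2 scale GFP+ differed from NT by -1.79 ± 0.61 (adjusted p = 0.144), GFP+/- from NT by -2.30 ± 0.61 (adjusted p = 0.0788), and the averaged signals stood 3.28-fold and 4.91-fold lower. This probe set was not among the bright ones on its mean signal of 50.6. In GFP+ against NT no other member was past 2-fold (26.8% of all probe sets were), and in GFP+/- against NT the other was Pfkp L25387_at (27.3% of all).

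The probe sets of a gene disagreed most in the comparisons with NT. Pfkp L25387_at stood at -0.87 ± 0.35 in GFP+ against NT (adjusted p = 0.200) and -1.54 ± 0.35 in GFP+/- against NT (adjusted p = 0.0526), 2.83-fold lower by averaged signals. The brighter L25387_g_at gave 0.38 ± 0.25 and -0.04 ± 0.25, so that the 2 probe sets differed by 1.25 and 1.498 on the log2 scale. Whether Pfkp differed from NT therefore depended on the probe set: L25387_at passed the threshold in GFP+/- against NT among bright probe sets (adjusted p = 0.00636), and L25387_g_at did not (adjusted p = 0.934). For Pgk1, rc_AA892797_at gave 0.02 ± 0.24 and 0.40 ± 0.24 against NT while M31788_g_at gave -0.61 ± 0.23 and -0.45 ± 0.23. For Eno1, X02610_g_at and X02610_at differed by 0.74 in GFP+ against NT and 0.66 in GFP+/- against NT. In GFP+ against GFP+/- the widest such gap of bright probe sets was 0.27, that of Hk1. In genes with several bright probe sets, the less bright ones all lay below the brightest in GFP+ against NT for 3 of 4 members (all but Hk1), beside 66.0% of 514 such genes, and in GFP+/- against NT for 3 of 4, beside 68.9%. Where on each transcript these probe sets lie was not analysed here.

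**Figure D3:**
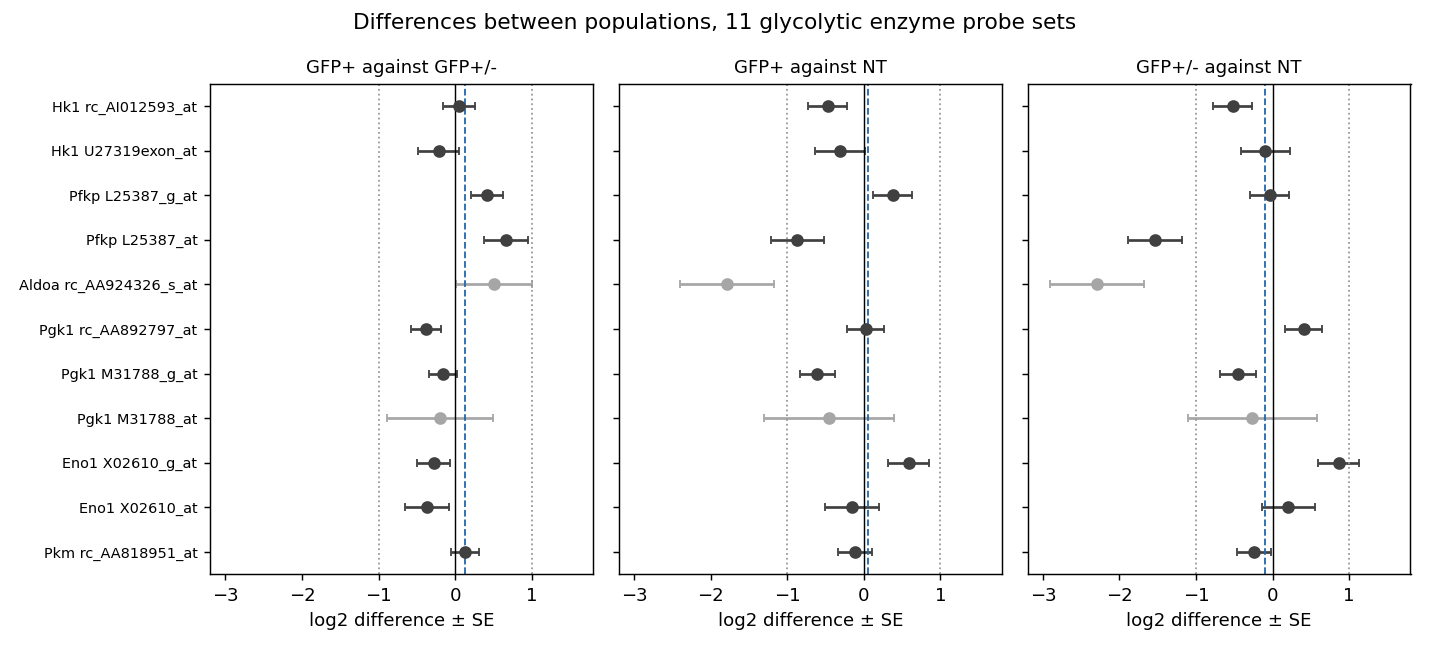
Log2 difference with its standard error for the 11 glycolytic enzyme probe sets in 3 comparisons (dark, bright probe sets; pale, dimmer ones). The dashed line is the median of all 8740 probe sets and dotted lines mark 2-fold. The probe sets of Pfkp, Pgk1 and Eno1 lie close together in GFP+ against GFP+/- and apart in the comparisons with NT, where the Pfkp probe sets differed by 1.25 and 1.498.

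The order of the populations differed between the genes and between probe sets of a gene. By averaged signals of the brightest probe set, NT was highest for Hk1, Aldoa and Pkm, GFP+ for Pfkp, and GFP+/- for Pgk1 and Eno1. Neighbours in that order did not differ past the threshold for any gene. By the second bright probe set, NT was highest for Pfkp (528, against 290 in GFP+ and 187 in GFP+/-) and Pgk1 (7580, against 4994 and 5546). The highest population was the same by both for Hk1 and Eno1. Centred on its own mean over the 5 arrays, the Eno1 profile was nearest to Pgk1 (root mean square distance 0.23 on the log2 scale), Hk1 to Pkm (0.20) and Pfkp to Pkm (0.21), and Aldoa was the farthest from every other member (0.79 at the least). The mean of the 6 centred profiles lay at -0.0044 and -0.03 on the GFP+ arrays, at -0.07 and -0.11 on the GFP+/- arrays and at 0.21 on the NT array. That NT value came mainly from the dim Aldoa probe set, at 125.4 in NT against 24.6 to 50.4 on the other arrays. By the brightest probe sets, which make up this mean, NT was the lowest array for Eno1 and not the highest for Pfkp and Pgk1. Of 2331 other bright genes, the nearest to that mean profile, Aldoa included, were Plekhm2 (distance 0.0459), Clta (0.0490), Bcl2l11 (0.0524), Tagln3 (0.0524) and Rgs12 (0.0536). These distances are to a nearly flat mean of members that differed in direction, and not to any single member.

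Genes around the members were read in 5 lists, whose medians over all measured genes stand beside those of all genes. Read from each gene's brightest probe set, they held 6 calls, all against NT, among 14, 9, 13, 9 and 8 measured genes. Aldoc, Pdk2 and Hmox1 were called in GFP+ against NT, where 8.44% of all probe sets were. Pfkm, Pdha1 and Hmox1 were called in GFP+/- against NT, where 9.23% were. In neither comparison was the share of list genes called above that of all probe sets. Leaving out any 1 array of the other populations leaves 1 residual degree of freedom, at which only 1 of all probe sets was called in GFP+ against NT and 1 to 333 in GFP+/- against NT, and 0 of the 6 calls passed (adjusted p from 0.0723 to 0.193). Their differences stayed of similar size, for example from -1.23 to -1.02 for Aldoc and from 1.06 to 1.33 for Pdk2 in GFP+ against NT.

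Other steps and isozymes of glycolysis were read from a list of 21 genes, 14 of them measured and 7 bright. None was called in GFP+ against GFP+/- (1 with an unadjusted p under 0.05), and the median log2 difference was 0.14, beside 0.11 over all genes. Aldoc, the brain aldolase, fell in GFP+ against NT: it read 707 and 817 in GFP+ and 1123 and 1031 in GFP+/-, with 1656 in NT, a log2 difference of -1.12 ± 0.21 (adjusted p = 0.0341). It was also lower in GFP+ than in GFP+/- on every array (-0.50 ± 0.17, adjusted p = 0.288). Both aldolases were thus highest in NT. Pfkm, the muscle-type phosphofructokinase subunit, fell in GFP+/- against NT by 1.10 on the log2 scale (SE 0.22, adjusted p = 0.0397, and 0.0546 with the arrays set to equal medians), at 819 and 653 against 1566 in NT, while GFP+ read 877 and 887. Its difference between GFP+ and GFP+/- was 0.27 ± 0.18 (adjusted p = 0.575), beside the 0.41 of Pfkp. Neither called gene had a second bright probe set. A dimmer one gave -2.46 in GFP+ against NT and -1.79 in GFP+/- against NT for Aldoc, past the threshold in both. In GFP+/- against NT the brightest Aldoc probe set gave -0.62 and was not called. For Pfkm a dimmer one gave -0.14 in GFP+/- against NT.

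The other bright isozymes were not called. Ldhb, the lactate dehydrogenase subunit of heart and neurons, read 6539 and 4498 in GFP+ and 6119 and 4246 in GFP+/-, with 3233 in NT, with differences from NT of 0.75 ± 0.34 and 0.66 ± 0.34. Pfkfb1, a bifunctional enzyme that sets the level of fructose-2,6-bisphosphate, gave 0.97 ± 0.33 and 0.68 ± 0.33 against NT, and Pfkfb4, of the same enzyme family, -0.52 ± 0.29 in both. Pgam1, phosphoglycerate mutase, lay within 0.17 of no difference in all 3 comparisons by its brightest probe set, while the less bright rc_AI169417_s_at fell by 1.27 in GFP+ against NT and by 1.57 in GFP+/- against NT (adjusted p = 0.0231 and 0.0152).

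**Figure D4:**
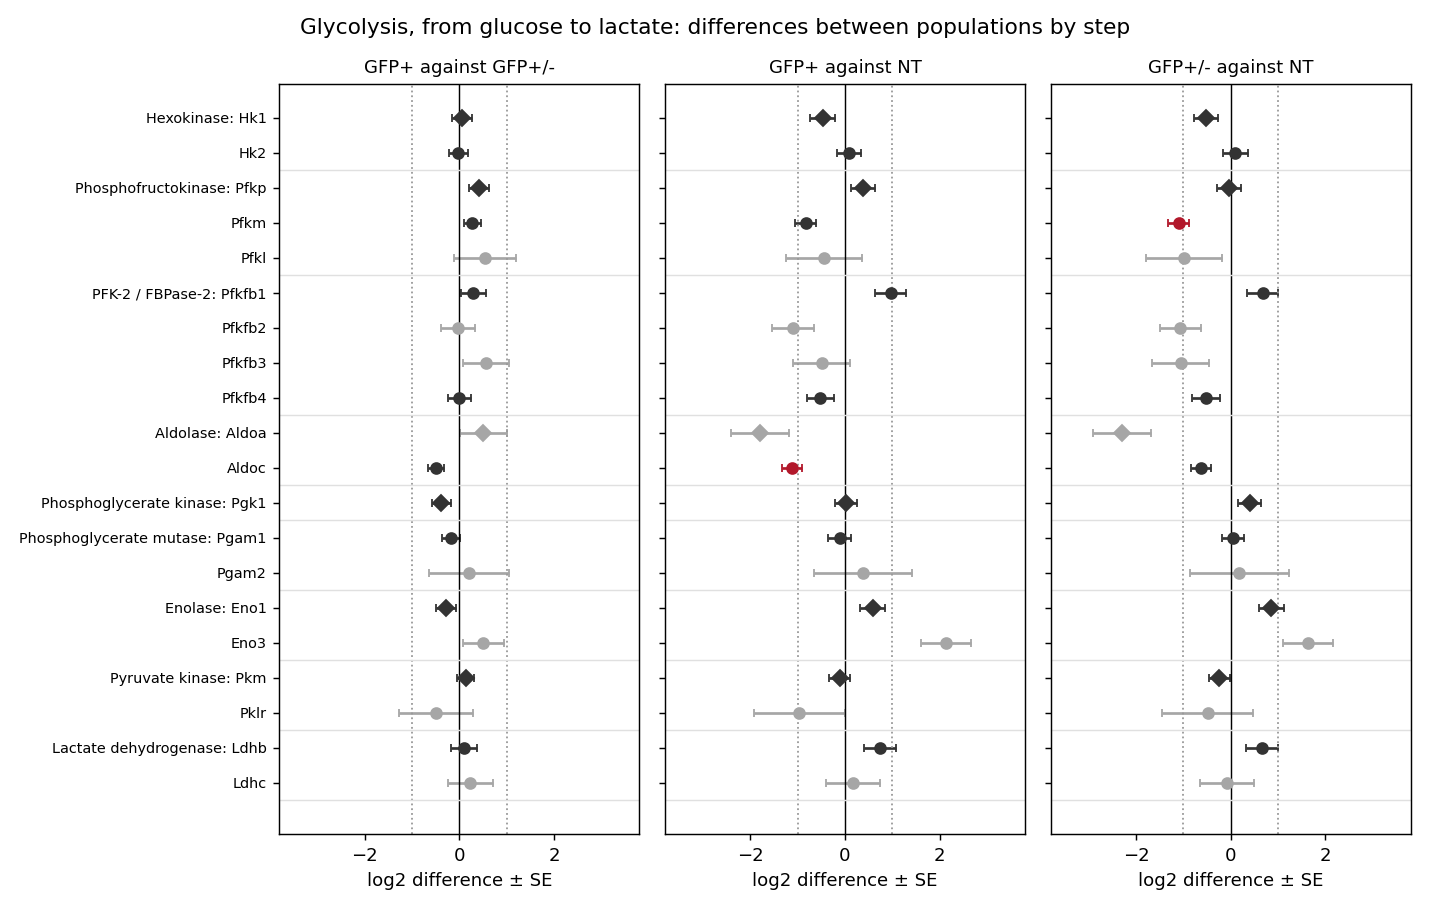
Log2 difference with its standard error for measured genes of glycolysis, ordered from glucose to lactate, each read from its brightest probe set (diamonds, the 6 members; circles, isozymes and other steps; pale, dimmer probe sets; red, adjusted p under 0.05). No gene is red in GFP+ against GFP+/-; Aldoc (-1.12) is red in GFP+ against NT and Pfkm (-1.10) in GFP+/- against NT.

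Glucose and lactate transport came next to the pathway itself, with 9 genes listed and measured. None was called in any comparison, with 1 at an unadjusted p under 0.05 between GFP+ and GFP+/- and 2 between GFP+/- and NT. Slc2a1, the glucose carrier of the blood-brain barrier and glia, read 1202 and 1379 in GFP+ and 1765 and 1851 in GFP+/-, with 1189 in NT. Both GFP+/- arrays were above the rest. The same held for the brightest probe sets of Pgk1 and Eno1, but not for their other bright ones. For Slc2a1 the difference of GFP+ from GFP+/- was -0.49 ± 0.16 (adjusted p = 0.288). The neuronal glucose carrier Slc2a3 gave 0.24 ± 0.23, the lactate carrier Slc16a1 0.35 ± 0.21 and its chaperone Bsg -0.30 ± 0.19 in that comparison.

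Of 17 genes of pyruvate use and the shuttles, 13 were measured and 0 called in GFP+ against GFP+/- (median 0.07, beside 0.11 over all genes). Against NT 1 rose in GFP+ and 1 fell in GFP+/-. Pdk2, a kinase that switches pyruvate dehydrogenase off, rose in GFP+ by 1.19 ± 0.23 (adjusted p = 0.0398), at 560 and 674 against 269, with 540 and 494 in GFP+/- (0.94 ± 0.23, adjusted p = 0.0653). Its second bright probe set gave 0.04 and 0.13. Pdha1, the subunit of pyruvate dehydrogenase on which that kinase acts, fell in GFP+/- by 0.98 on the log2 scale (SE 0.21, adjusted p = 0.0443, and 0.063 with equal medians), at 1294 and 1410 against 2660, with 1834 and 1565 in GFP+ (-0.65 ± 0.21, adjusted p = 0.123). The mitochondrial pyruvate carrier Mpc1 (-1.12 ± 0.31 and -1.01 ± 0.31) was not called against NT. Nor was the mitochondrial malate dehydrogenase Mdh2, whose probe sets went opposite ways: rc_AI010480_g_at gave 0.98 ± 0.26 and 0.92 ± 0.26, and the less bright rc_AI010480_at -0.43 and -0.30. The cytosolic Mdh1 (-0.74 ± 0.26 and -0.58 ± 0.26) and the mitochondrial aspartate aminotransferase Got2 (0.70 ± 0.34 and 0.39 ± 0.34) were not called either.

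The pentose phosphate, glycogen and gluconeogenesis list (16 genes, 9 measured) had 0 calls in every comparison and 0 at an unadjusted p under 0.05, with medians of 0.09, -0.03 and -0.08. Transketolase, Tkt, was -0.20 ± 0.26 in GFP+ against GFP+/-, and against NT the brain glycogen phosphorylase Pygb gave 0.45 ± 0.28 and 0.36 ± 0.28, transaldolase Taldo1 -0.19 ± 0.24 and -0.23 ± 0.24, and phosphoglucomutase Pgm1 0.21 ± 0.20 and 0.07 ± 0.20. Of 13 transcripts of the hypoxia response, 8 were measured, and 0 were called in GFP+ against GFP+/- (median 0.0099). Hmox1, heme oxygenase, rose against NT in both populations, at 868 and 861 in GFP+ and 806 and 968 in GFP+/-, with 433 in NT (1.00 ± 0.22, adjusted p = 0.0492, and 1.03 ± 0.22, adjusted p = 0.0432), the first with an adjusted p of 0.0506 after quantile normalization. Hmox1 is also a known stress and heme response gene. The other bright genes of that list were Egln3, a HIF prolyl hydroxylase (0.89 ± 0.24 and 0.82 ± 0.24 against NT, adjusted p = 0.0819 and 0.0975 by rc_AA799678_s_at, but 0.06 and 0.0045 by U06713_at, adjusted p = 0.922 and 0.995), and P4ha1, a collagen prolyl hydroxylase (-0.33 ± 0.22 and 0.10 ± 0.22).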

How the data were processed

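RNA of 3 cell populations was read on 5 Affymetrix rat arrays. The deposited values are MAS 5.0 signals, linear intensities (intensity), scaled by the authors with 1 factor per array. The methods state a lower target mean than the files hold: the mean after trimming 2% from either end was 501 on every array. After 59 control probe sets were left out, 8740 remained, of which 7006 had 1 gene symbol, 308 several and 1426 none. The platform annotation was updated by Entrez ID through RefSeq (6985 matched), giving 4736 genes. Where a gene had several probe sets, the one brightest on average stood for it.

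From the deposited intensity, log2 values were taken here after raising signals below 1 to 1 (143 values, 0 of members). All arrays entered a single limma fit (version 3.58.1, R 4.3.3) with a mean for each population, intensity trend and 2 residual degrees of freedom, with Benjamini-Hochberg adjustment over 8740 probe sets. The fit was run on simulated data with planted log2 differences. That run checked the size of its estimates and not the p-values of these arrays. The ratio of averaged signals past 2-fold, the measure of the study's methods, carried no p. Standard errors and 95% intervals come from this fit. The number of arrays limits the precision.

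Members, 5 pathway lists and 9 marker lists were chosen with earlier results of these data known. Every member was named, and from each list each gene past the threshold and up to 4 more with the largest difference in any comparison among bright probe sets, the 3586 with the highest mean signals. Alternatives were quantile normalization, equal medians, 16 added to each signal, bright probe sets alone, the mean over a gene's probe sets, 1.5-fold, the replicate number as a block and leaving out each array.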

Additional observations from a re-analysis of the deposited data

How the results depend on the processing

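Of 269 member values recomputed under an alternative, 249 kept their direction and their side of the threshold, 3 passed it and 17 changed sign. The lowest adjusted p of a member under any alternative was 0.204 in GFP+ against GFP+/- and 0.0754 in GFP+ against NT (limma). In GFP+/- against NT, 1 member probe set passed with 16 added (Pfkp L25387_at, -1.45) and 2 among bright probe sets alone (with Eno1 X02610_g_at). The cause of these changes was not tested.

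With equal medians, which moved the median of all probe sets in GFP+ against GFP+/- from 0.13 to -0.03, Hk1 rc_AI012593_at became -0.11 and Pkm -0.026, Pgk1 rc_AA892797_at in GFP+ against NT -0.021, and in GFP+/- against NT Hk1 U27319exon_at 0.021 and Pfkp L25387_g_at 0.077. Under quantile normalization Hk1 rc_AI012593_at became -0.069 and, in GFP+ against NT, Pgk1 rc_AA892797_at -0.19. The median of the 6 genes moved to -0.067 (GFP+ against GFP+/-) and -0.025 (GFP+/- against NT) with equal medians, and to -0.30 (GFP+ against NT) and -0.27 (GFP+/- against NT) with the mean over a gene's probe sets. At 1.5-fold, 2 genes were past the limit in GFP+/- against NT.

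Leaving out 1 array gave medians from -0.044 to 0.17 in GFP+ against GFP+/- and -0.29 to 0.010 in GFP+/- against NT. Signs changed in GFP+ against GFP+/- for Hk1 rc_AI012593_at (-0.18 to 0.28), Hk1 U27319exon_at (-0.44 to 0.0079), Pgk1 M31788_at (-1.05 to 0.66), Eno1 X02610_at (-0.77 to 0.048) and Pkm (-0.0058 to 0.27). They changed in GFP+ against NT for Pgk1 rc_AA892797_at (-0.063 to 0.11) and Pgk1 M31788_at (-1.31 to 0.39), and in GFP+/- against NT for Eno1 X02610_at (-0.20 to 0.62), Hk1 U27319exon_at (-0.19 to 0.0034) and Pfkp L25387_g_at (-0.20 to 0.13). Counts over all probe sets with 1 array left out, and so 1 residual degree of freedom, were 1 in every case for GFP+ against NT and from 1 to 333 for GFP+/- against NT.

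Among the 3586 bright probe sets, 144 were called in GFP+ against GFP+/- and 1131 in GFP+ against NT. Replicate numbers were not taken to pair the arrays: deviations of same-numbered arrays correlated at 0.0632 over all probe sets and 0.197 over the bright ones. Adjusted over bright probe sets alone, the brightest probe sets of Pfkm, Pdk2, Mpc1, Mdh2, Egln3 and Hmox1 passed against NT in both populations. Those of Aldoc and Pfkfb1 passed in GFP+ against NT alone, and that of Pdha1 in GFP+/- against NT alone. The lists held 7, 4, 10, 4 and 3 bright genes, and of all bright probe sets 31.5% and 32.4% passed in these comparisons. The second bright probe sets of Pdk2, Mdh2 and Egln3 lay between -0.43 and 0.13. With the replicate number as a block 2 probe sets were called in GFP+ against GFP+/-, none of them a member. Among the other pathway genes, Pgam1 S63233_g_at changed sign under quantile normalization (0.019 in GFP+ against GFP+/- and -0.36 in GFP+/- against NT), and with 1 array left out Tkt in GFP+ against GFP+/- (-0.47 to 0.070), Taldo1 in GFP+ against NT (-0.39 to 0.010) and P4ha1 in GFP+/- against NT (-0.017 to 0.21).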

Other observations

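In the pathway lists 7 genes had several bright probe sets: Dlat, Egln3, Ldhb, Mdh2, Pdk2, Pgam1 and Pygb. The less bright ones all lay below the brightest for 6 of the 7 in GFP+ against NT (all but Ldhb, 0.75 by both), beside 66.0% of 514 genes with several bright probe sets, and for 7 of 7 in GFP+/- against NT, beside 68.9%. In GFP+ against GFP+/- they did for 4 of 7, beside 48.1%. Dimmer probe sets went either way: against NT, that of Hk2 gave 3.13 and 2.26 where the brightest gave 0.08 and 0.10, and that of Pdhb -1.35 and -0.83 where the brightest gave -0.02 and 0.09. A less bright probe set passed the threshold for 2 of the 7, which were picked out for this after their values were seen. Pgam1, phosphoglycerate mutase, had 3 bright probe sets: S63233_g_at gave -0.11 in GFP+ against NT and 0.06 in GFP+/- against NT, S63233_at gave -0.69 and -0.78, and rc_AI169417_s_at fell by 1.27 and by 1.57 on the log2 scale (adjusted p = 0.0231 and 0.0152, limma). Between GFP+ and GFP+/- the 3 gave -0.17, 0.09 and 0.30. Dlat, a component of the pyruvate dehydrogenase complex, gave -0.23 and 0.22 against NT by D10655_at and fell by 1.54 and by 1.59 by D10655_g_at (adjusted p = 0.0220 and 0.0207).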
